A study of Homo sapiens with 72 samples.

Results

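The NF-kB factors and their feedback genes were followed in PEO1 cells, an established line of high-grade serous ovarian carcinoma (HGSOC), after exposure to the PARP inhibitor rucaparib. The 10 genes were RELA, RELB, REL, NFKB1 and NFKB2, which encode the 5 DNA-binding subunits, NFKBIA, NFKBIE and NFKBIZ, which encode members of the IkB family, and the feedback genes TNFAIP3 and BIRC3. They were chosen by gene name, as 10 of the 55411 genes to which transcripts could be matched. All 10 passed the filter on low counts, which 19834 genes passed in all. NF-kB dimers are held in the cytoplasm by IkB proteins and enter the nucleus when the IkB kinase (IKK) complex marks the inhibitor for destruction, in response to cytokines, microbial products or DNA double-strand breaks. Several of the genes that NF-kB then switches on, among them NFKBIA and TNFAIP3, encode proteins that end the signal, so that their mRNA is widely used as a readout of the pathway. In epithelial tumour cells the same pathway drives chemokines, adhesion molecules and survival genes.

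Rucaparib is fluorescent, and cells were separated by the drug they contained. RucHigh and RucLow cells had been given 8.5 µM rucaparib for 2 or 24 h, detached, kept on ice and sorted by flow cytometry into the 20% with the highest and the 20% with the lowest drug fluorescence. RucTotal cells had the same dose for the same times and were lysed on the plate without sorting, and Vehicle cells were handled like RucTotal cells but had vehicle in place of the drug. Each of the 8 groups of gate, treatment and time had 3 replicates, each the sum of 3 technical libraries, so that 24 samples were compared. No group of sorted Vehicle cells was analysed here, and sorted cells differed from RucTotal cells in detachment, time on ice and passage through the sorter as well as in gate, which cannot be told apart.

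The 72 libraries held 17391033 to 38899905 reads assigned to transcripts (median 33431403). The HGSOC markers PAX8, EPCAM, KRT7 and WT1 averaged 189, 292, 6700 and 36.4 CPM (counts per 1000000 counted reads, scaled between samples by the trimmed mean of M values), while MUC1 averaged 0.080 CPM. The defining leukocyte, endothelial and fibroblast genes PTPRC, CD3E, LYZ, PECAM1, COL3A1, DCN and LUM were at or near 0 and were not tested, whereas the leukocyte genes CD14 and ITGAM averaged 4.72 and 2.90 CPM, CDH5 averaged 15.6 CPM and COL1A1 9.99 CPM. ITGAM had a log2 difference of 0.91 ± 0.25 between RucTotal and Vehicle cells at 24 h (adjusted p 0.0553 by edgeR) and was called higher with the replicate number in the model (0.93, adjusted p 0.00164), and its part in the 24 h drug results was not tested. A pair of libraries stood apart by their number of detected genes, 1 of Vehicle 2 h replicate 1 with 26215 and 1 of RucLow 2 h replicate 2 with 31523, against 20407 to 23725 in the rest. Leaving both out changed no call for any of the 10 genes. Libraries also varied in how long the transcripts behind their reads were, averaging under 2800 bases in 18 of them, and this moved with several of the 10 genes, as given below.

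Promoter windows from RefSeq (GRCh38.p14) were matched by symbol for 8 of the 10 genes, all but RELB and NFKBIE. NF-kB dimers bind 10-base sites, and the 250 bases before each listed start were searched on both strands for the site GGGNNTTTCC, where N is any base. It stood in 608 of 35116 listed windows (1.73%), or in at least 1 window of 578 of 27305 genes (2.12%). Of the 8 genes, 7 had a match, in 8 of their 13 windows, the exception being RELA. REL, NFKB1, NFKBIA and NFKBIZ had GGGAATTTCC, NFKB2 had GGGGCTTTCC and GGGACTTTCC in different windows, TNFAIP3 had GGGACTTTCC and GGGGATTTCC next to each other, and BIRC3 had GGGGATTTCC. Among 20 other known NF-kB target genes with a listed window, 5 had a match. A match is a description of the letters and does not show that a factor was bound. Only this 1 pattern was searched, so the lack of a match does not show that no site is present. The windows of TNFAIP3 and NFKBIZ, the genes that changed most with drug and with sorting, and of NFKBIA and BIRC3, the other listed IkB and feedback genes, are printed 5′ to 3′ on the strand of the gene, with matches in capitals. A match on the opposite strand reads as its reverse complement, GGAAATCCCC for GGGGATTTCC. The TNFAIP3 window is chr6:137867009-137867258 (plus strand), with matches 67 to 58 and 55 to 46 bases before the start. The NFKBIZ window is chr3:101827740-101827989 (plus strand), with a match at 223 to 214 bases. The NFKBIA window is chr14:35404750-35404999 (minus strand), with a match at 81 to 72 bases. The BIRC3 window is chr11:102317234-102317483 (plus strand), with a match at 199 to 190 bases.
TNFAIP3: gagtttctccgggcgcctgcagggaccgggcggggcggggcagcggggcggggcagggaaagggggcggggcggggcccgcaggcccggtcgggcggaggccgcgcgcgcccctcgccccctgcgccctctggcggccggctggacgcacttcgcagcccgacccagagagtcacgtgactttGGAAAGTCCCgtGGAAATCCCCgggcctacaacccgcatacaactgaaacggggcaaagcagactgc
NFKBIZ: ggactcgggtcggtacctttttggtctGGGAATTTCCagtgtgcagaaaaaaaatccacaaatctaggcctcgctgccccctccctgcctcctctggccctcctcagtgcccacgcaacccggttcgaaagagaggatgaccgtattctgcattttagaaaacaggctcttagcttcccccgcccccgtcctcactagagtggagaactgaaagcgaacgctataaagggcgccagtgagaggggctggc
NFKBIA: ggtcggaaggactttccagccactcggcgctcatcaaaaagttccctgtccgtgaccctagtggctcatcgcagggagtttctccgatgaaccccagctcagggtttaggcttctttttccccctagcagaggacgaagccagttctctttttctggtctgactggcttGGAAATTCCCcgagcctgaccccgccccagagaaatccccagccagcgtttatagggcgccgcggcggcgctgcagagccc
BIRC3: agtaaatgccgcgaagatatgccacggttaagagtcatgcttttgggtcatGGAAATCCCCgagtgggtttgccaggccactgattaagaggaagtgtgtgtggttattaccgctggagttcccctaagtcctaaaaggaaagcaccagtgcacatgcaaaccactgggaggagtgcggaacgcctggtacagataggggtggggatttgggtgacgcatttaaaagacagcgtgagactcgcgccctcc

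In the GENCODE 29 annotation of GRCh38 the genes lay at chr11:65653596-65663094 (RELA), chr19:45001430-45038198 (RELB), chr2:60881521-60931610 (REL), chr4:102501329-102617302 (NFKB1), chr10:102394110-102402529 (NFKB2), chr14:35401511-35404749 (NFKBIA), chr6:44258166-44265788 (NFKBIE), chr3:101827991-101861022 (NFKBIZ), chr6:137867188-137883312 (TNFAIP3) and chr11:102317450-102339403 (BIRC3). Compared per length in TPM (transcripts per 1000000, corrected for length), NFKBIA (mean 149 TPM over the 24 samples, range 91.9 to 261) and RELA (mean 132 TPM, range 59.8 to 216) were the most abundant of the 10, with ranges that overlapped. TNFAIP3 followed at a mean of 81.4 TPM. RELB (25.2 TPM), NFKB1 (21.9 TPM), BIRC3 (18.2 TPM) and NFKBIE (17.4 TPM) lay close together, and their ranges over samples overlapped. NFKB2 (6.96 TPM), NFKBIZ (5.59 TPM) and REL (1.04 TPM) were the least abundant. REL, whose product c-Rel is best known in lymphocytes, never exceeded 2.12 TPM. The RELA level rested in part on a short annotated transcript of 215 bases, which took 45.4% of the RELA TPM on average (19.8 to 65.2%), so its TPM depends on how reads were shared between transcripts. For TNFAIP3, 6 of the 11 GENCODE 29 transcripts were matched, and reads given to transcripts outside that release were not counted.

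The range over the 8 group means differed between the genes. NFKBIZ varied most, with 4.61-fold between its highest and lowest group mean in CPM, followed by TNFAIP3 at 2.63-fold, RELB at 2.20-fold, NFKBIE at 2.13-fold and NFKB2 at 2.07-fold. NFKB1 varied least, at 1.29-fold. NFKB2 varied widely between samples of 1 group, with a biological coefficient of variation of 0.502, against 0.127 for RELA. Part of this lay between technical libraries of 1 replicate. In reads per 1000000 matched reads, the 3 libraries of replicate 1 had 60.97, 10.1 and 11.6 in RucTotal cells at 24 h, 36.1, 7.14 and 5.87 in RucTotal cells at 2 h and 74.7, 8.90 and 10.3 in Vehicle cells at 2 h, and those of replicate 2 had 5.39, 57.8 and 6.35 in RucLow cells at 2 h. Single libraries thus set several of the NFKB2 values given for replicates below.

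**Figure D1:**
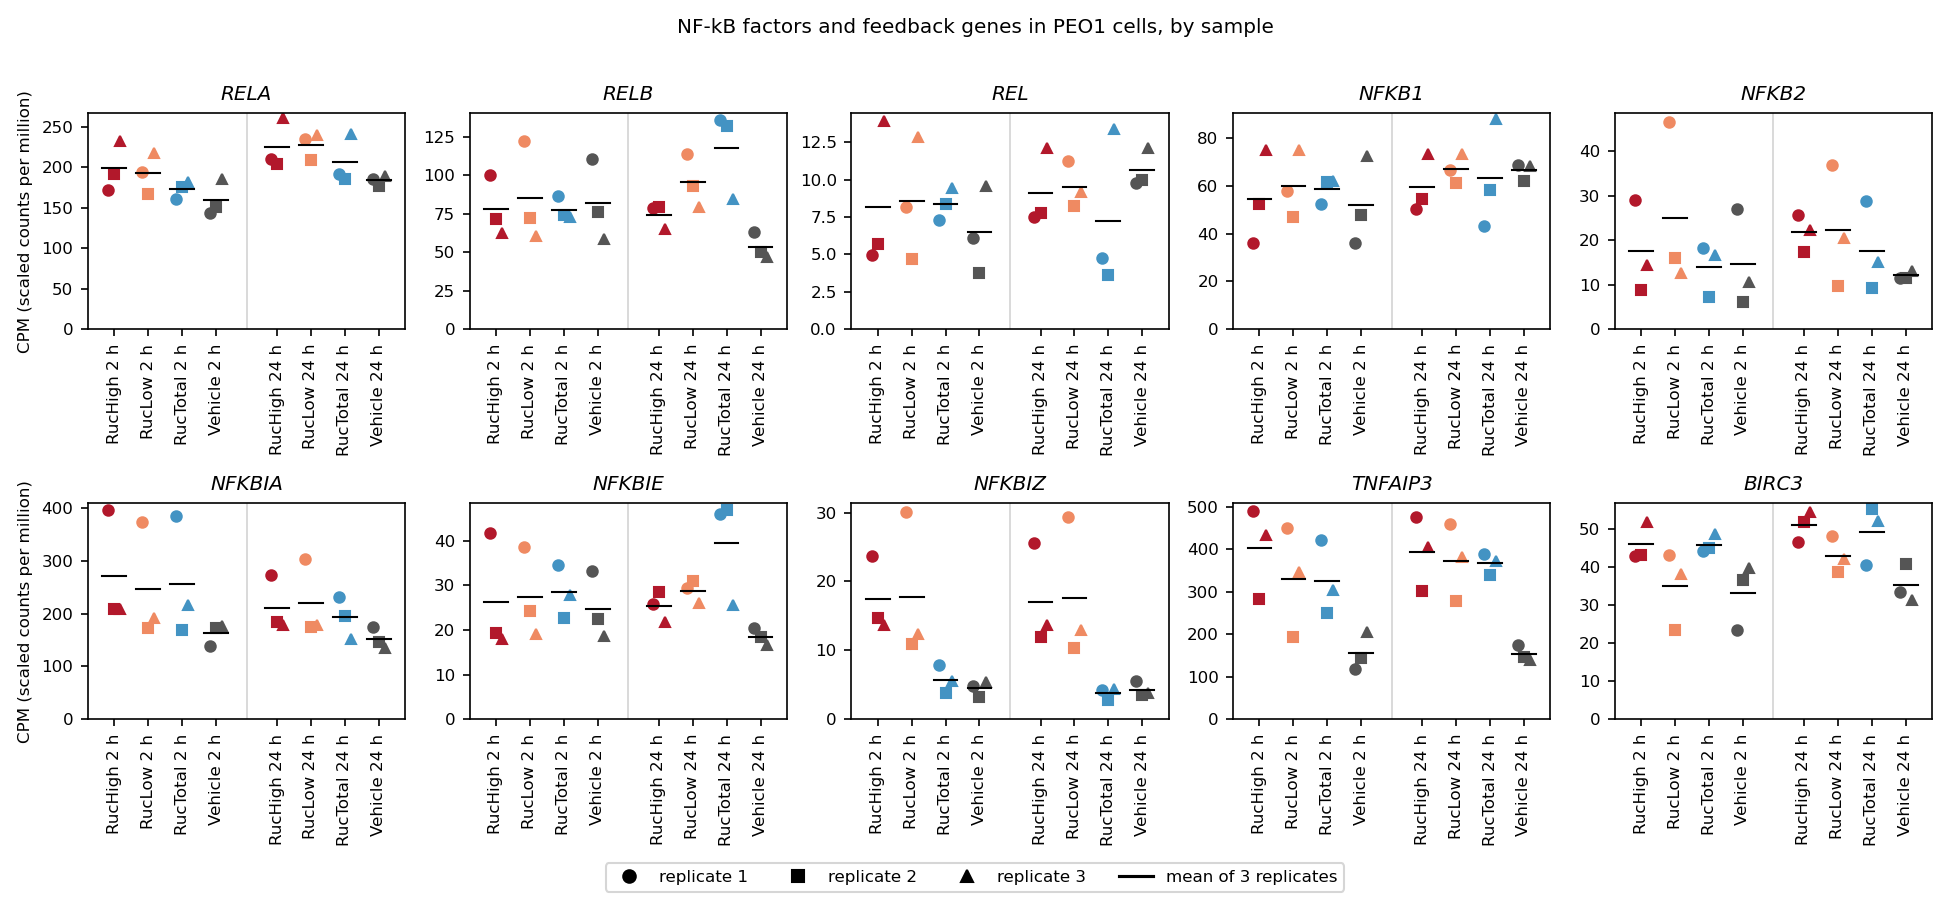
Each panel shows CPM of 1 gene in the 24 samples (points, with a shape for each replicate) and the mean of 3 replicates (bars) for RucHigh, RucLow, RucTotal and Vehicle cells at 2 h (left of the grey line) and 24 h (right of it). TNFAIP3 lies between 195 and 491 CPM in the rucaparib-treated samples and between 119 and 206.5 CPM in the Vehicle samples, while NFKBIZ lies at 10.4 CPM or more in every sorted sample and at 7.92 CPM or less in every unsorted one.

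The response of unsorted cells to the drug was compared first, since neither RucTotal nor Vehicle cells were sorted. After 24 h, TNFAIP3 and RELB rose 2.40-fold and 2.20-fold, NFKBIE was 2.13-fold higher without passing the test (adjusted p 0.0618 by edgeR), and BIRC3 and NFKBIA had 1.40-fold and 1.27-fold higher values without passing it. The other subunits and NFKBIZ did not pass the test. In such bulk samples a larger share of expressing cells and more RNA per cell cannot be told apart. Thus 2 of 10 genes were called higher and 0 lower at 24 h, beside 619 of all 19834 genes (3.12%), 401 higher and 218 lower (edgeR quasi-likelihood test, Benjamini-Hochberg adjusted p under 0.05). The median log2 difference was 0.42 over the 10 genes and 0.029 over all genes. After 2 h, 0 of 10 genes were called by edgeR and 0 by DESeq2, beside 4 of 19834 genes (0.0202%), although TNFAIP3 and BIRC3 were higher in all 3 replicates and had an unadjusted p under 0.05.

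TNFAIP3 encodes A20, a ubiquitin-editing enzyme that shuts off signalling upstream of IKK. At 2 h it had 423, 251 and 304 CPM in RucTotal cells of replicates 1, 2 and 3, against 119, 143 and 206.5 CPM in Vehicle cells. The lowest RucTotal sample thus lay above the highest Vehicle sample. The log2 difference was 1.06 ± 0.29 (SE, 95% interval 0.46 to 1.66) with an adjusted p of 0.338 by edgeR, and it was largest in replicate 1, where it reached 1.83, against 0.81 and 0.56 in replicates 2 and 3. At 24 h TNFAIP3 had 389, 339 and 374 CPM in RucTotal cells, against 174, 146 and 139.6 CPM in Vehicle cells. Here the replicates lay close together, the groups did not overlap, and the log2 difference of 1.26 ± 0.29 (0.66 to 1.87) passed with an adjusted p of 0.0246. By replicate it was 1.17, 1.22 and 1.42. The call needed all 3 replicates, since the adjusted p was 0.0733, 0.397 and 0.0836 without replicates 1, 2 and 3, with log2 differences of 1.32, 1.26 and 1.17. On the log2(TPM + 1) scale with limma the difference was 0.96 and the adjusted p 0.261.

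BIRC3 encodes cIAP2, a ubiquitin ligase that protects cells from death-receptor killing and restrains the non-canonical branch of the pathway. At 2 h it had 44.1, 45.1 and 48.6 CPM in RucTotal cells, against 23.4, 36.7 and 39.8 CPM in Vehicle cells. The groups did not overlap, but the log2 difference of 0.47 ± 0.20 (0.046 to 0.89) had an adjusted p of 0.709. At 24 h it had 40.6, 55.3 and 52.1 CPM in RucTotal cells, against 33.4, 40.8 and 31.4 CPM in Vehicle cells. The lowest RucTotal sample lay just under the highest Vehicle sample, and the log2 difference of 0.49 ± 0.20 (0.067 to 0.91) had an adjusted p of 0.152. TNFAIP3 and BIRC3 were thus the 2 of 10 genes whose 2 h RucTotal samples all lay above the Vehicle samples, as was so for 3.85% of all genes tested.

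RELB encodes the subunit of the non-canonical branch, which pairs with the p52 product of NFKB2, and is itself a target of NF-kB. At 24 h it had 136, 132 and 84.4 CPM in RucTotal cells, against 62.8, 50.2 and 46.9 CPM in Vehicle cells. Replicate 3 was the lowest in both groups, and the groups did not overlap. The log2 difference was 1.14 ± 0.26 (0.59 to 1.69) with an adjusted p of 0.0265. At 2 h it had 86.2, 73.9 and 72.5 CPM in RucTotal cells, against 110.5, 76.0 and 58.4 CPM in Vehicle cells, so that the Vehicle samples lay on both sides of the RucTotal samples. The log2 difference at 2 h was -0.074 ± 0.26 (-0.62 to 0.47). The 24 h call was lost without replicate 2 (log2 difference 0.97, adjusted p 0.754), with only the 6 samples of the comparison in the fit (1.12, adjusted p 0.119) and on the log2(TPM + 1) scale (0.82, adjusted p 0.333).

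NFKBIE encodes IkB epsilon, an inhibitor that NF-kB itself induces. At 24 h it had 46.01, 46.97 and 25.6 CPM in RucTotal cells, against 20.5, 18.4 and 16.7 CPM in Vehicle cells. As for RELB, replicate 3 was lowest in both groups and the groups did not overlap. The log2 difference of 1.09 ± 0.32 (0.43 to 1.75) had an adjusted p of 0.0618. With the replicate number in the model it was 1.06 with an adjusted p of 0.00306, and NFKBIE was then also called, which made 3 of 10 genes, beside 23.3% of all genes called by that fit. DESeq2 called the same 3 genes, RELB, NFKBIE and TNFAIP3. At 2 h it had 34.6, 22.8 and 27.97 CPM in RucTotal cells, against 33.2, 22.6 and 18.6 CPM in Vehicle cells, which overlapped. The 3 of 10 genes whose 24 h RucTotal samples all lay above the Vehicle samples were RELB, NFKBIE and TNFAIP3, as was so for 13.3% of all genes tested, while 0 of the 10 lay below, as 11.1% of all genes did.

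NFKBIA encodes IkB alpha, the main inhibitor of the canonical dimers. At 2 h it had 385, 169 and 216 CPM in RucTotal cells, against 138, 173 and 176 CPM in Vehicle cells. Replicate 1 held most of the difference, which was 1.48 there on the log2 scale, against -0.036 and 0.29 in replicates 2 and 3, and the fitted value of 0.66 ± 0.34 (-0.046 to 1.36) had an adjusted p of 0.798. At 24 h it had 232, 196 and 152 CPM in RucTotal cells, against 174, 147 and 135 CPM in Vehicle cells. All 3 replicates were higher with drug but the groups overlapped, with a log2 difference of 0.35 ± 0.34 (-0.36 to 1.05). NFKBIZ, which encodes the nuclear protein IkB zeta, a co-activator of secondary NF-kB targets, had 4.31, 2.83 and 4.39 CPM in RucTotal cells at 24 h, against 5.54, 3.46 and 3.80 CPM in Vehicle cells, a log2 difference of -0.15 ± 0.43 (-1.06 to 0.76). At 2 h the NFKBIZ difference was 0.36 ± 0.43 (-0.55 to 1.27).

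The remaining subunits gave smaller or more variable differences. RELA, the p65 subunit that activates most canonical targets, had 192, 185 and 240.4 CPM in RucTotal cells at 24 h, against 185, 177 and 189 CPM in Vehicle cells, a log2 difference of 0.16 ± 0.14 (-0.12 to 0.45, adjusted p 0.479). At 2 h its difference was 0.11 (-0.18 to 0.40). NFKB1, the precursor of p50, differed by -0.074 at 24 h (-0.65 to 0.51) and by 0.17 at 2 h (-0.41 to 0.75). REL had 4.79, 3.61 and 13.4 CPM in RucTotal cells at 24 h, against 9.79, 9.95 and 12.1 CPM in Vehicle cells. Replicates 1 and 2 were thus low and replicate 3 was not, and the log2 difference of -0.55 ± 0.46 (-1.52 to 0.42) had an adjusted p of 0.477. Without replicate 3 it was -1.25 with an adjusted p of 0.0251. NFKB2, the precursor of p52, had 28.7, 9.27 and 15 CPM in RucTotal cells at 24 h, against 11.6, 11.5 and 13.2 CPM in Vehicle cells, a log2 difference of 0.55 whose interval of -0.72 to 1.81 held both 0 and the differences of the called genes. Without replicate 1 the NFKB2 difference was -0.022.

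**Figure D2:**
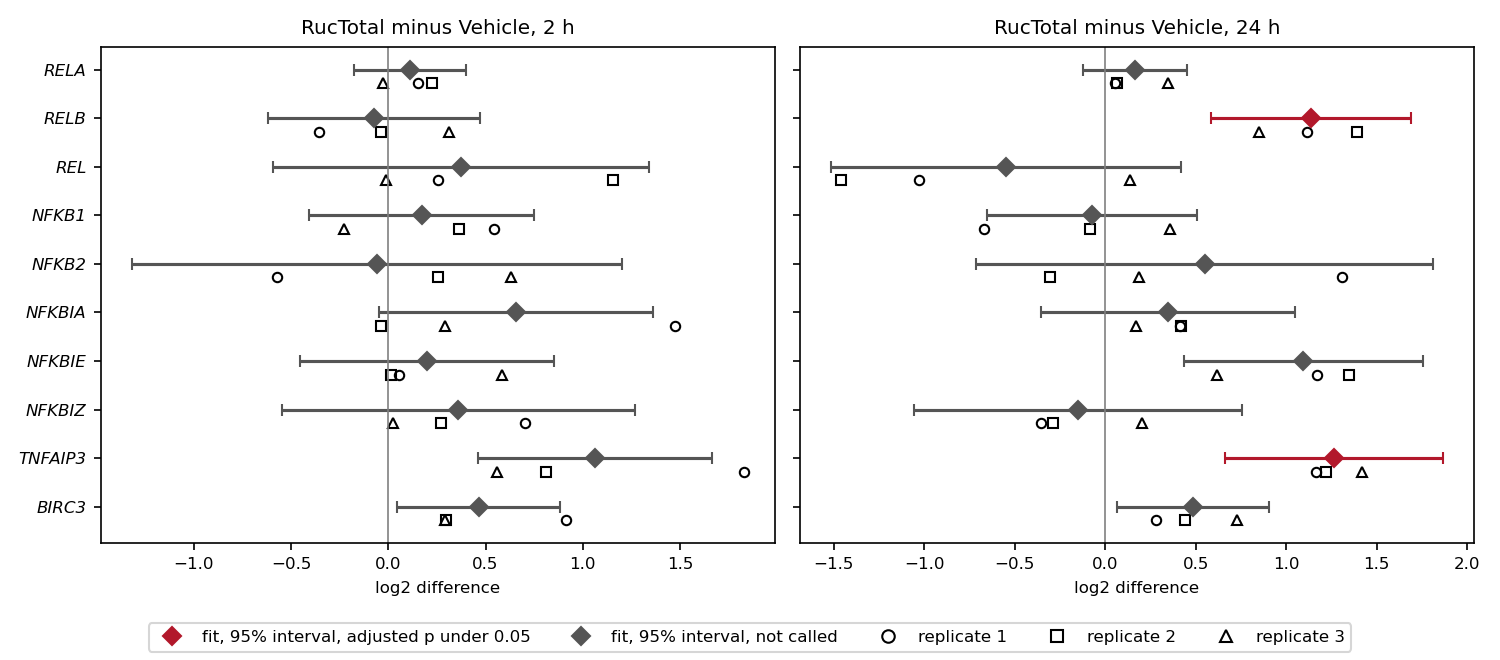
Log2 difference in expression between RucTotal and Vehicle cells at 2 h (left) and 24 h (right) for the 10 genes, as fitted by edgeR with its 95% interval (diamonds and bars) and in each of 3 replicates (open symbols). The 2 genes with an adjusted p under 0.05, RELB at 1.14 and TNFAIP3 at 1.26, are in red, both at 24 h.

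Whether the drug effect differed between the times was tested as a difference of differences. By edgeR 0 of 10 genes passed, beside 23 of all genes (0.116%). RELB alone had an unadjusted p under 0.05, with a larger drug effect at 24 h than at 2 h by 1.21 ± 0.37 on the log2 scale (0.44 to 1.99) and an adjusted p of 0.132, in the same direction in 3 of 3 replicates. DESeq2 called RELB (adjusted p 0.0367), as did the fit with the replicate number in the model (1.15, adjusted p 0.00331), which called 17.2% of all genes. It was also called without replicate 3 (1.46, adjusted p 0.0281), as was REL there (-1.91, adjusted p 0.0225). For TNFAIP3 the drug effects at the 2 times differed by 0.20 with an interval of -0.64 to 1.04. For NFKBIE the difference was 0.90 (-0.030 to 1.82).

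RELB also set the times apart within each treatment. In Vehicle cells it was lower at 24 h than at 2 h in 3 of 3 replicates, with a log2 difference of -0.62 ± 0.26 (-1.16 to -0.069, adjusted p 0.266). In RucTotal cells it was higher at 24 h in 3 of 3 replicates, with a difference of 0.60 ± 0.26 (0.050 to 1.14, adjusted p 0.252). Neither passed the test, and 0 of 10 genes were called between the times by edgeR or DESeq2 in Vehicle cells (6 of all genes, 0.0303%) or in RucTotal cells (372, 1.88%), with RELB the 1 gene at an unadjusted p under 0.05 in each. Mean transcript length in Vehicle cells of replicates 1, 2 and 3 was 2729, 2747 and 3078 bases at 2 h. At 24 h it was 3120, 3107 and 3231 bases. In RucTotal cells it was 2758, 2982 and 2890 bases at 2 h and 2746, 2711 and 3229 bases at 24 h. RELB ran lower with longer transcripts over the samples, as given below. With the replicate number in the model RELB was called lower in Vehicle cells (-0.58, adjusted p 0.0265, beside 8.27% of all genes) and higher in RucTotal cells (0.57, adjusted p 0.0129, beside 11.9%). With transcript length in that model as well, 5 of 10 genes were called between the times in RucTotal cells, RELB (0.58), NFKBIE (0.48) and RELA (0.23) higher at 24 h and REL (-0.50) and NFKBIZ (-0.585) lower, beside 23.1% of all genes. TNFAIP3 differed by -0.031 (-0.63 to 0.56) between the times in Vehicle cells and by 0.17 (-0.42 to 0.77) in RucTotal cells. In sorted cells 0 of 10 genes were called between the times by either tool and 0 had an unadjusted p under 0.05, beside 0.262% of all genes called in RucLow cells and 0.212% in RucHigh cells. Time groups failed to overlap for REL in Vehicle cells (higher at 24 h, as 9.03% of genes were) and for RELA in RucTotal cells (higher at 24 h, as 10.4% were).

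Next, cells with high and low drug fluorescence were compared, which asks whether the amount of drug in a cell goes with its NF-kB transcripts. At neither time did any of the 10 genes pass the test between RucHigh and RucLow cells. By edgeR and by DESeq2 the count was 0 of 10 at 2 h and at 24 h, 0 of 10 had an unadjusted p under 0.05, and each adjusted p was 1, beside 1 of all genes at 2 h (0.00504%) and 21 at 24 h (0.106%). With the replicate number in the model 0 of 10 were called at either time, beside 0.368% of all genes at 2 h and 0.585% at 24 h. The median log2 difference over the 10 genes was -0.040 at 2 h and -0.049 at 24 h, against -0.0021 and -0.0071 over all genes.

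TNFAIP3 had 491, 282 and 435 CPM in RucHigh cells at 2 h, against 451, 195 and 346 CPM in RucLow cells. It was higher in RucHigh in each replicate while the groups overlapped, with a log2 difference of 0.28 ± 0.28 (-0.31 to 0.88). At 24 h TNFAIP3 had 475, 303 and 407 CPM in RucHigh cells, against 459.8, 279 and 382 CPM in RucLow cells, a difference of 0.080 (-0.52 to 0.67). BIRC3 at 2 h had 43, 43.2 and 51.99 CPM in RucHigh cells, against 43.3, 23.5 and 38.3 CPM in RucLow cells. Replicates 2 and 3 were higher in RucHigh and replicate 1 was level, giving 0.40 ± 0.20 (-0.024 to 0.81, unadjusted p 0.0633). RELB was the 1 gene whose gates did not overlap, with 78.3, 79.3 and 64.9 CPM in RucHigh cells at 24 h, against 113, 93.0 and 79.5 CPM in RucLow cells. All RucHigh samples lay below all RucLow samples, as was so for 3.54% of all genes, and the difference of -0.36 ± 0.26 (-0.91 to 0.19) had an unadjusted p of 0.182. With the replicate number in the edgeR model the RELB difference was -0.343 with a smaller SE of 0.135 and an adjusted p of 0.462. For the others the intervals at 24 h ran from -0.31 to 0.27 for RELA, the narrowest, to -1.30 to 1.22 for NFKB2, the widest. The gate difference did not differ between the times for any of the 10 genes by edgeR or DESeq2, with 0 at an unadjusted p under 0.05 and 0 of all genes called (0%).

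Finally, sorted cells, taken as the mean of RucHigh and RucLow, were compared with unsorted RucTotal cells given the same drug for the same time. NFKBIZ was the 1 gene of the 10 that passed the edgeR test, and it rose at both times. It had 23.8, 14.7 and 13.7 CPM in RucHigh cells and 30.02, 10.9 and 12.3 CPM in RucLow cells at 2 h, against 7.92, 3.89 and 5.49 CPM in RucTotal cells. At 24 h it had 25.6, 11.9 and 13.6 CPM in RucHigh cells and 29.4, 10.4 and 13.02 CPM in RucLow cells, against 4.31, 2.83 and 4.39 CPM in RucTotal cells. Every sorted sample lay above every RucTotal sample at each time, as was so for 6.10% of all genes at 2 h and 6.01% at 24 h, and replicate 1 was the highest in each sorted group. The log2 difference was 1.61 ± 0.40 at 2 h (0.77 to 2.45, adjusted p 0.0424) and 2.17 ± 0.42 at 24 h (1.30 to 3.04, adjusted p 0.00521). It was 1 of 444 genes called at 2 h (2.24%) and 1 of 1792 at 24 h (9.03%).

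The 2 h call for NFKBIZ was lost without replicate 2 (1.59, adjusted p 0.326), without replicate 3 (1.78, adjusted p 0.235), without the 18 libraries under 2800 bases (1.56, adjusted p 0.0671) and with only the 9 samples of the comparison in the fit (1.65, adjusted p 0.0677), and the 24 h call without replicate 2 (2.26, adjusted p 0.172). The difference between the times was 0.56 ± 0.53 (-0.54 to 1.67), and 0 of 10 genes were called for it by edgeR or DESeq2, 0 had an unadjusted p under 0.05, and 0 of all genes were called. Early-response and heat shock genes, known to rise when cells are handled, moved the same way. Of 11 such genes, 5 rose in sorted cells at each time (with the replicate block, 6 rose at 2 h, while 7 rose and 1 fell at 24 h), among them EGR1 by 5.18 at 2 h and 4.85 at 24 h and FOS by 4.29 and 3.96 on the log2 scale. Their summed level was 2487 to 5207 CPM in sorted samples and 1183 to 1834 CPM in unsorted ones, and mitochondrially encoded reads were 1.61 to 4.37% in sorted samples and 0.245 to 1.34% in unsorted ones. Over the 24 samples log2 NFKBIZ correlated with log2 mitochondrial share at r = 0.852, as a description of samples that share this split by sorting. Their part in the NFKBIZ result was not tested. Annotated non-coding transcripts, among them a retained-intron transcript, took 46.7% of NFKBIZ TPM in RucHigh and 43.4% in RucLow cells at 24 h, against 39.3% in RucTotal cells, and 43.4% in RucHigh and 41.5% in RucLow at 2 h, against 23.7% in RucTotal. At 24 h RucTotal samples ran from 25.5 to 47.65% and overlapped RucHigh (43.2 to 50.1%) and RucLow (39.5 to 47.3%). At 2 h they ran from 12.6 to 34.7%, below RucLow (36.9% or more) and RucHigh (40.3% or more).

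**Figure D3:**
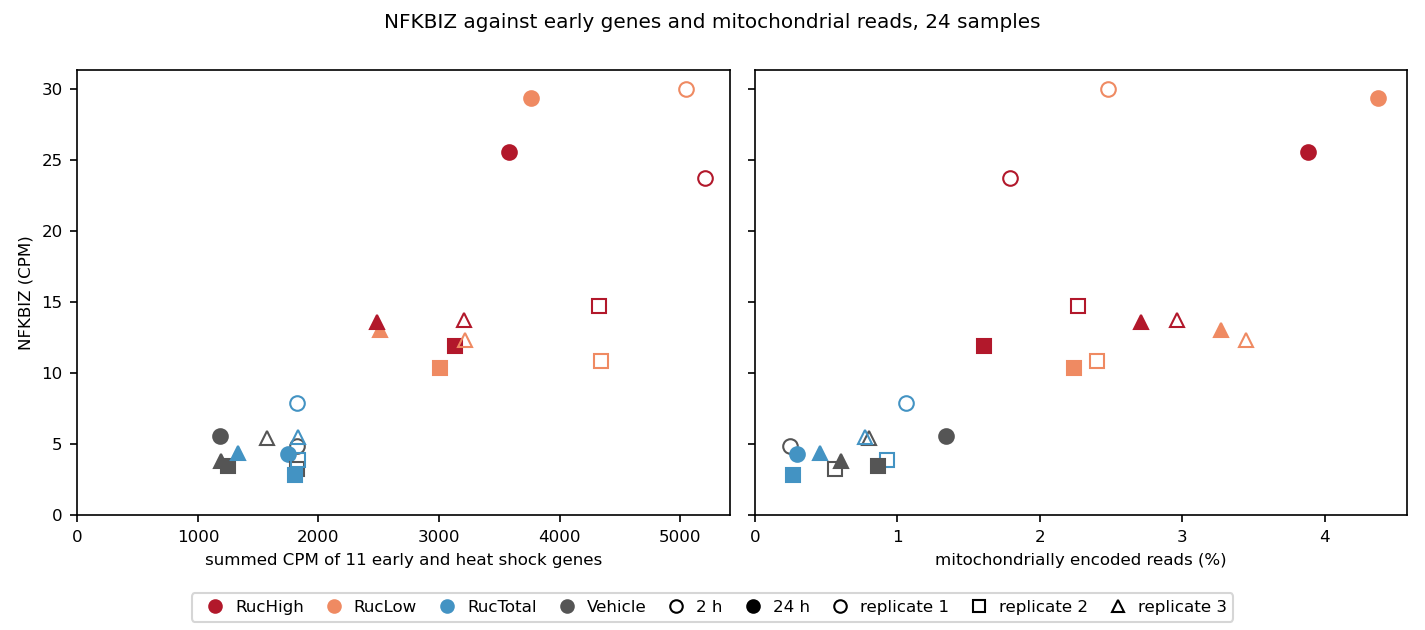
NFKBIZ (CPM, vertical axis) in the 24 samples against the summed CPM of 11 early and heat shock genes (left) and against the percentage of mitochondrially encoded reads (right), with a colour for each group, open symbols for 2 h, filled for 24 h and a shape for each replicate. The 12 sorted samples, at 10.4 CPM of NFKBIZ or more and 1.61% or more mitochondrial reads, stand apart from the 12 unsorted ones on every axis.

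RELB and NFKBIE lay below RucTotal in the sorted cells at 24 h. The log2 difference between sorted cells and RucTotal was -0.48 ± 0.22 for RELB (-0.94 to -0.016, adjusted p 0.178) and -0.55 ± 0.27 for NFKBIE (-1.10 to 0.008, adjusted p 0.203), each in 3 of 3 replicates. With the replicate number in the model both were called lower (RELB -0.46, adjusted p 0.0089, and NFKBIE -0.51, adjusted p 0.0498), which with NFKBIZ made 3 of 10 genes, beside 24.0% of all genes called by that fit. TNFAIP3, as the mean of the gates, differed from RucTotal by 0.16 at 2 h (-0.36 to 0.68) and 0.064 at 24 h (-0.45 to 0.58). It did not pass the test at either time. In order of group means, TNFAIP3 ran from 403 ± 108 CPM in RucHigh 2 h cells (SD, n = 3) to 326 ± 87.7 CPM in RucTotal 2 h cells over the 6 treated groups, neighbours that did not differ beyond their spread, with Vehicle cells at 156 ± 45.2 CPM at 2 h and 153 ± 18.3 CPM at 24 h. RELB had its highest mean in RucTotal 24 h cells (117 ± 28.5 CPM), followed by RucLow 24 h cells (95.3 ± 17.1 CPM), with Vehicle 24 h cells lowest (53.3 ± 8.39 CPM).

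The other genes did not pass between sorted and RucTotal cells at either time, and their spread lay between replicates. NFKBIA had 396, 209 and 208 CPM in RucHigh cells and 373, 173 and 192 CPM in RucLow cells at 2 h, against the 385, 169 and 216 CPM in RucTotal cells given above, a log2 difference of 0.009 ± 0.29 (-0.60 to 0.62). Replicate 1 was by far the highest of each treated group at 2 h, whereas it was the lowest of the Vehicle samples. NFKB2 had 29.1, 8.87 and 14.5 CPM in RucHigh cells and 46.5, 16.1 and 12.6 CPM in RucLow cells at 2 h, against 18.2, 7.23 and 16.6 CPM in RucTotal cells, and 27.1, 6.05 and 10.7 CPM in Vehicle cells. Its highest value was that of replicate 1 in 7 of the 8 groups, with Vehicle 24 h as the exception, and sorted cells differed from RucTotal by 0.58 with an interval of -0.54 to 1.70. REL had 4.98, 5.67 and 13.9 CPM in RucHigh cells and 8.20, 4.67 and 12.9 CPM in RucLow cells at 2 h, against 7.32, 8.37 and 9.47 CPM in RucTotal cells. Replicate 3 stood above the others in both gates. RELA showed the least spread, with 172, 192 and 232 CPM in RucHigh cells and 194, 166 and 218 CPM in RucLow cells at 2 h, against 160.2, 176 and 182 CPM in RucTotal cells (0.18 ± 0.12, -0.070 to 0.43). RELA depended on the unit used. In TPM it averaged 135 ± 25.2 in Vehicle cells at 24 h and 71.3 ± 11 at 2 h (SD, n = 3), against 184 ± 6.34 and 160 ± 21.9 in CPM, and the differences of 0.90 on the log2(TPM + 1) scale (adjusted p 0.375 by limma) and 0.20 in the count fit (adjusted p 0.439 by edgeR) both missed the threshold.

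The mean length of the transcripts that a library sampled moved with some of these genes, and is given beside them. It was 2746, 2711 and 3229 bases in RucTotal 24 h cells of replicates 1, 2 and 3, against 3120, 3107 and 3231 bases in Vehicle 24 h cells, so that replicates 1 and 2 differed between the groups and replicate 3 did not. Over the 24 samples, which share replicates and groups, log2 expression correlated with this length at r = -0.641 for RELB and -0.707 for NFKBIE, and at 0.879 for REL, 0.815 for NFKB1 and 0.670 for RELA. NFKBIA (-0.371) and BIRC3 (0.228) lay between, and TNFAIP3 (-0.008), NFKB2 (-0.092) and NFKBIZ (0.091) had r near 0 over these summed samples. After group means were removed r was -0.694 for RELB, -0.798 for NFKBIE, 0.905 for REL, 0.883 for NFKB1, 0.892 for RELA, 0.433 for BIRC3 and -0.376 for NFKBIA, and it was 0.187 for TNFAIP3, -0.193 for NFKB2 and 0.004 for NFKBIZ. In replicate 3, where the lengths were alike, the 24 h drug difference was 0.85 on the log2 scale for RELB, 0.62 for NFKBIE, 1.42 for TNFAIP3 and 0.14 for REL. With the replicate number and the length both in the model the 24 h drug difference was 0.95 for RELB (adjusted p 0.00177), 1.37 for TNFAIP3 (adjusted p 0.00438), 0.61 for NFKBIE (adjusted p 0.0676) and 0.32 for RELA (adjusted p 0.0109), beside 5.59% of all genes called. TNFAIP3 at 2 h was 1.01 in that fit, with an adjusted p of 0.0274, beside 1.08% of all genes called. Without the 18 libraries under 2800 bases, RELB (0.98, adjusted p 0.0263) and TNFAIP3 (1.32, adjusted p 0.012) were called at 24 h and NFKBIE was not (0.83, adjusted p 0.0827). The part of transcript length in the other differences was not tested.

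**Figure D4:**
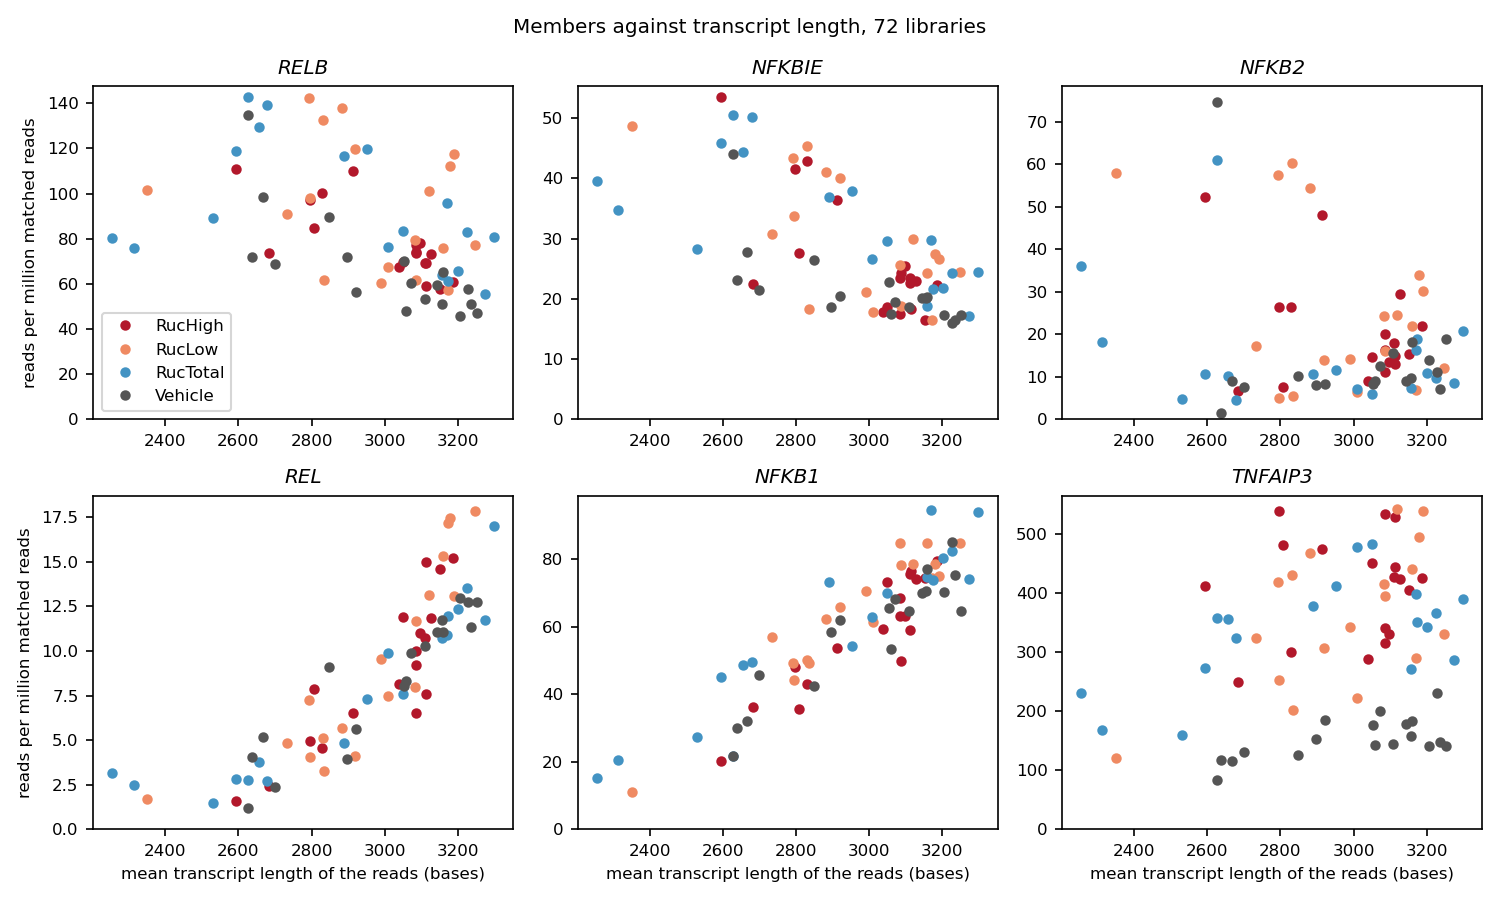
Reads per 1000000 matched reads (vertical axes) of 6 of the genes in the 72 libraries against the mean length in bases of the transcripts their reads came from, with a colour for each group at both times. RELB and NFKBIE are higher and REL and NFKB1 lower in libraries of shorter transcripts. TNFAIP3 has r = -0.008 over the 24 summed samples, but in RucTotal 2 h cells the shortest library of each replicate holds its lowest value.

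The genes whose log2 CPM ran most like each of the 10 over the 24 samples were sought among 10762 genes of at least 5 CPM, as a description by Pearson's r. RELB and NFKBIE were each among the other's 3 most similar genes (r = 0.926, and 0.911 after group means were removed), next to UPP1 (0.939) for RELB and SLC25A38 (0.933) for NFKBIE. TNFAIP3 ran most like CXCL1 (0.930) and CXCL8 (0.916), the chemokine targets, and then HS3ST1 (0.907). NFKBIZ ran most like PRPF39 (0.968), CCNL1 (0.964) and ZC3H12A (0.953). REL was led by PKN2 (0.953), NFKB1 by ARCN1 (0.947) and RELA by PRKAB2 (0.932), and the pairs REL with NFKB1 (0.781) and RELA with NFKB1 (0.702) also ran together. The nearest genes were less alike for BIRC3 (MAP1LC3B, 0.842), NFKBIA (ZRANB2, 0.852) and NFKB2 (YTHDF1, 0.799). NFKBIA and TNFAIP3 had an r of 0.722. Samples in these correlations share groups, replicates and library length.

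Other genes of the pathway were read from lists by role. After 24 h of drug, of 22 other NF-kB targets tested, 10 rose and 0 fell in RucTotal relative to Vehicle cells, beside 3.12% of all genes called, 21 had a difference above 0, and their median was 0.69 on the log2 scale against 0.029 over all genes. The largest changes among targets of at least 1 CPM were those of the chemokines CXCL8 (2.35 ± 0.42, adjusted p 0.00623) and CXCL1 (1.89 ± 0.40, adjusted p 0.0177). CXCL8 had 76.4, 105 and 59.5 CPM in RucTotal cells, against 15.5, 18.3 and 13.4 CPM in Vehicle cells, which did not overlap. With the replicate number in the model 16 of the 22 were called higher and 0 lower, beside 23.3% of all genes. At 2 h, 0 of the 22 passed by edgeR and 0 by DESeq2, while 10 had an unadjusted p under 0.05, as 6.59% of all genes did, and 14 lay above 0. The Vehicle samples also differed between the times. In Vehicle cells 2 of the 22 targets lay higher at 24 h than at 2 h, with a median of -0.41 on the log2 scale against -0.039 over all genes, and 0 were called, or 0 higher and 5 lower with the replicate number in the model (beside 8.27% of all genes), BCL2A1, SDC4, IL6, CCL20 and RELT. The 11 early and heat shock genes also lay mostly higher with drug at 24 h. Of these 9 lay above 0 with a median of 0.55, and 0 passed, while JUN, ATF3, IER2 and HSPA1A were called higher with the replicate number in the model. In Vehicle cells 0 of these 11 lay higher at 24 h than at 2 h (median -0.41), and IER2 and HSPA1A were called lower by that model. The part of handling genes in the drug results was not tested.

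Among the adaptors and ubiquitin ligases upstream of IKK, 2 of 12 rose and 0 fell at 24 h, beside 3.12% of all genes called, or 5 and 2 with the replicate number in the model, beside 23.3%. DESeq2 called 6 of these 12, and 7 had an unadjusted p under 0.05 by edgeR, as 24.1% of all genes did. For the kinases, other feedback genes, list for damaged DNA and other targets, DESeq2 called 1 of 14, 2 of 10, 1 of 7 and 11 of 22. The counts that follow are set against the same shares. TRAF1, an adaptor that NF-kB induces and that binds cIAP proteins, had 17.1, 21.4 and 16.5 CPM in RucTotal cells, against 7.06, 5.81 and 5.05 CPM in Vehicle cells. The groups lay far apart (log2 difference 1.62 ± 0.23, adjusted p 0.00118), and in RucTotal cells TRAF1 was also higher at 24 h than at 2 h (1.24 ± 0.23, adjusted p 0.00905). The other was RBCK1, which encodes HOIL-1 of the linear ubiquitin ligase (0.61 ± 0.15, adjusted p 0.0349). Of 10 other deubiquitinases and feedback genes, 2 rose and 0 fell, both partners of A20, TNIP2 (0.73 ± 0.19, adjusted p 0.0427) and TNIP1 (0.46 ± 0.078, adjusted p 0.00476). Of 14 IKK subunits and kinases, 1 rose and 0 fell, namely IKBKG (0.59 ± 0.14, adjusted p 0.0301), which encodes NEMO, the scaffold of IKK, and which shares reads with a near-identical pseudogene copy. IKBKG was also the 1 of 7 genes that passed in the list for signalling from damaged DNA to IKK. The lists of receptors (0 of 12), ligands (0 of 6) and other IkB genes (0 of 3, NFKBIB not being analysed here) held none by edgeR, with 2, 1 and 0 genes at an unadjusted p under 0.05 and 1, 0 and 0 called by DESeq2. In the model with the replicate number 2 of 12 receptors were called higher (LTBR and CD40) and 2 lower (IL1R1 and TNFRSF11A), a share near the 23.3% of all genes. That model also called TAB3 lower among the kinases, TAX1BP1 lower among the feedback genes, and PIDD1 and PIAS4 higher in the list for damaged DNA, which made 3 of 7 there.

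Between RucHigh and RucLow cells 0 genes of these 8 lists were called at either time by edgeR, with 2 at 2 h and 4 at 24 h at an unadjusted p under 0.05 and 0 and 1 called by DESeq2. The model with the replicate number called 1, the cytokine gene IL1B, which was higher in RucHigh cells at 24 h (1.29, adjusted p 0.0494, mean 0.334 CPM over all samples), beside 0.585% of all genes. Sorting gave calls in both directions. At 24 h, 1 of 3 other IkB genes, 1 of 14 kinases, 1 of 12 adaptors, 1 of 10 feedback genes, 1 of 6 ligands and 2 of 22 targets were called higher in sorted than in RucTotal cells, and 2 kinases, 1 feedback gene, 1 of 12 receptors and 1 target were called lower, beside 9.03% of all genes. The model with the replicate number called 24.0% of all genes, and in it 2 of 3 other IkB genes, 3 kinases, 1 adaptor, 2 feedback genes, 1 ligand and 4 targets were called higher, and 2 kinases, 2 adaptors, 2 feedback genes, 2 receptors and 2 targets lower. Sorted cells had higher TNF, the cytokine ligand (1.43 ± 0.40, adjusted p 0.035), TRAF5, an adaptor (0.88 ± 0.13, adjusted p 8.71e-04), CXCL2, a chemokine (1.78 ± 0.53, adjusted p 0.0421), ZC3H12A, a ribonuclease that degrades inflammatory mRNAs (1.31 ± 0.27, adjusted p 0.0081), and BCL3, an IkB-like co-activator (0.46 ± 0.14, adjusted p 0.048). IKBKG (-0.52 ± 0.12, adjusted p 0.0142), TNIP1 (-0.23 ± 0.067, adjusted p 0.0359) and SDC4, a syndecan (-0.50 ± 0.12, adjusted p 0.0198), were lower in sorted cells than in RucTotal cells. At 2 h 1 of 10 feedback genes and 3 of 22 targets were called, all higher, beside 2.24% of all genes, among them ZC3H12A (1.14 ± 0.27, adjusted p 0.0314) and CXCL2 (2.31 ± 0.55, adjusted p 0.0336). With the replicate number in the model 14.4% of all genes were called at 2 h. Called higher were 1 of 3 other IkB genes, 1 kinase, 1 adaptor, 1 feedback gene, 1 ligand and 5 targets. Called lower were 1 feedback gene and 1 gene of the list for damaged DNA. ZC3H12A had 51.8, 35.4 and 37.1 CPM in RucHigh and 47.5, 35.2 and 35.01 CPM in RucLow cells at 24 h, against 19.4, 15.1 and 14.4 CPM in RucTotal cells and the sorted and unsorted samples did not overlap.

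**Figure D5:**
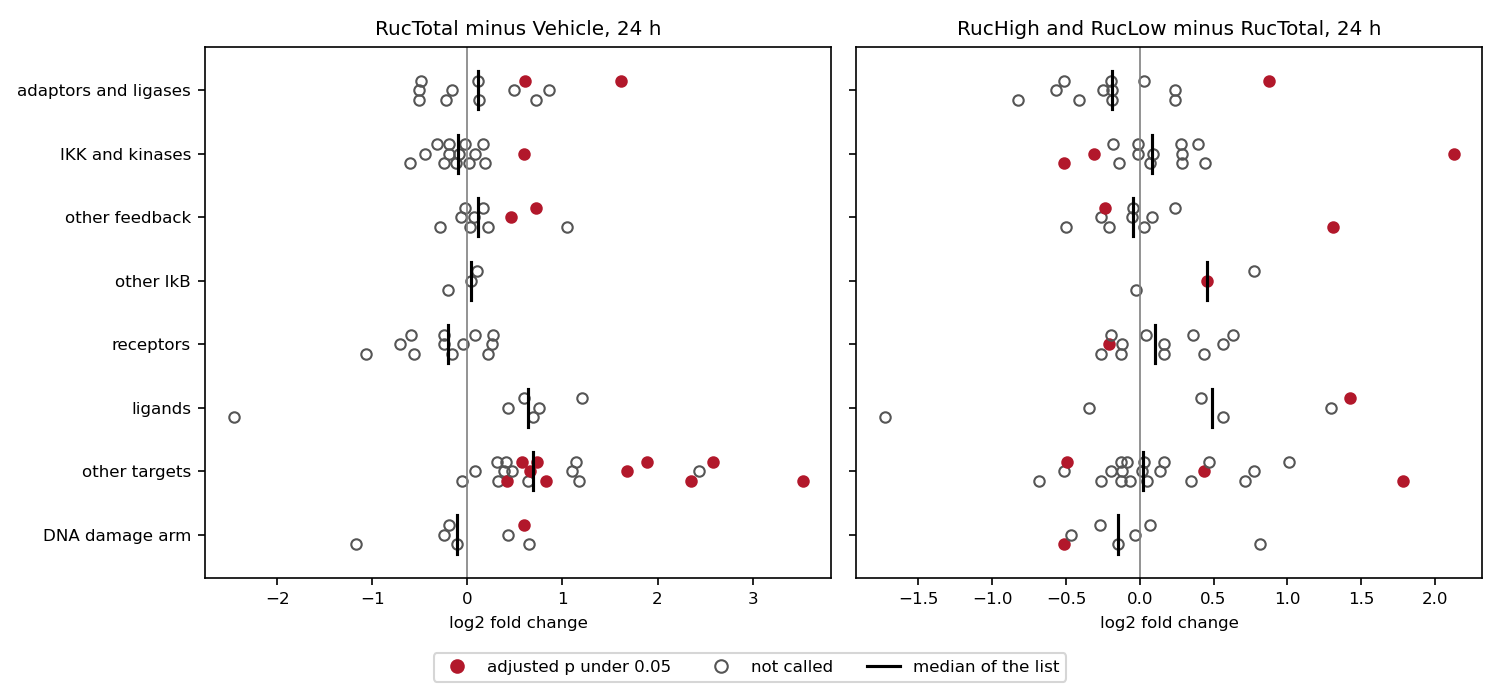
Log2 fold change of the genes in 8 pathway lists (rows) between RucTotal and Vehicle cells at 24 h (left) and between sorted and RucTotal cells at 24 h (right), with genes at an adjusted p under 0.05 filled in red and the median of each list as a bar. With drug the 22 other targets lie almost wholly above 0 (median 0.69), whereas with sorting their median is 0.022 and calls fall on both sides.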

How the data were processed

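RNA was sequenced from PEO1 cells as poly(A)-selected, strand-specific libraries. Per the submitters' processing notes, reads were trimmed with cutadapt 4.7 and quantified with Salmon on GRCh38 (version not given in the sources used here), and DESeq2 1.44.0 is named. The authors deposited, for each of 72 libraries, estimated counts and TPM per transcript, with transcript length and effective length in bases. Transcripts were matched to genes by GENCODE 29, and 62932 of 257369 transcripts, with 9.65 to 11.7% of the reads, had no match and were not used. Estimated counts were summed per gene and over the 3 libraries of each replicate and rounded, and TPM was averaged over them. These estimated counts, as deposited, carry no correction for library size. Genes were kept by filterByExpr and tested with edgeR 4.0.16 (quasi-likelihood, TMM, all 24 samples in 1 fit with group as the only term) with Benjamini-Hochberg adjustment over 19834 genes at 0.05. CPM are TMM-scaled.

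The 13 comparisons were drug, gate, sorting and time contrasts and the differences of those contrasts between times. Intervals are 95% intervals of the fit. Alternatives used DESeq2 1.42.0, limma 3.58.1 on log2(TPM + 1), other filters and scaling, fewer libraries or replicates, the mean transcript length of a sample and the replicate number. The study's methods place replicates of sorting experiments in general on different days, without naming these RNA libraries, and the labels give only a number. Same-numbered samples deviated together on the whole (median correlation of deviations from group means 0.274, range -0.052 to 0.59). The median for different numbers was -0.115, which is tied to the first by the removal of group means and is not separate evidence. The fit with the replicate block is therefore given where it changed a call for the 10 genes, between the gates, and as counts for pathway lists where stated. Scripts were tested on simulated data. The members, gene lists and tests were chosen with earlier results of these data known. Named were all 10 members, up to 2 called genes of at least 1 CPM per list and direction, and the 3 genes most like each member. Genes called only with the replicate block, and CD14 and ITGAM, were named after their values were seen. No columns of other series were present.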

Additional observations from a re-analysis of the deposited data

Results flagged for a closer look

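Single libraries of a group were compared with its other libraries (9 libraries a group, in reads per 1000000 matched reads). Of 80 sets of gene and group, 8 had a library far from the rest, where chance gives about 1 in 20. In a library of RucLow 2 h replicate 2, RELA had 115.4, with the nearest at 174.9, and NFKB1 had 10.91, with the nearest at 49.23. This was the library with 31523 detected genes and the shortest mean transcript length of its group (2351 bases). NFKB2 stood out in 5 groups, each time in a library of replicate 1. It had 47.98 in RucHigh 24 h (nearest 29.38), 52.25 in RucHigh 2 h (nearest 26.33), 60.97 in RucTotal 24 h (nearest 20.68), 36.11 in RucTotal 2 h (nearest 18.81) and 74.71 in Vehicle 2 h (nearest 12.51). NFKBIE had 43.97 in the same Vehicle 2 h library (nearest 27.82).

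RELB was higher at 24 h than at 2 h in all 3 replicates of RucTotal cells and lower in all 3 of Vehicle cells. The difference between these changes was 1.212 on the log2 scale, with an adjusted p of 0.132 by edgeR. Mean transcript length also differed between the times in Vehicle cells, as given above.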

How the results depend on the processing

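Counts of called genes among the 10 were recomputed under 13 alternatives. After 24 h of drug, 2 were called, against 1 with only the groups compared in the fit and 0 with limma on log2(TPM + 1). The count was 3 with DESeq2 and 3 with the replicate block (RELB, NFKBIE and TNFAIP3 in each), and 0 to 3 without 1 replicate. RELA was called with the block and transcript length, as given above. After 2 h of drug, 0 were called, against 1 (TNFAIP3) with the replicate block and transcript length. For sorting at 2 h, 1 was called, against 0 with only the groups compared and 0 without libraries under 2800 bases, and 0 to 1 without 1 replicate. For sorting at 24 h, 1 was called, against 3 with the replicate block and 2 with the block and transcript length, and 0 to 2 without 1 replicate. For time, the replicate block called 1 gene in Vehicle and 1 in RucTotal cells in place of 0, and the block with transcript length 5 in RucTotal cells (RELB, NFKBIE and RELA higher at 24 h, REL and NFKBIZ lower). For the drug effect between times, 0 were called, against 1 each with DESeq2, the replicate block, and the block with transcript length, and 0 to 2 without 1 replicate. The replicate block changed no other call among the 10. Without replicate 2 the calls over all genes fell to 3 for drug at 24 h, 2 for sorting at 2 h and 5 for sorting at 24 h. Of 1690 recomputed log2 differences, 0 called values changed sign, 12 lost and 23 gained a call. Leaving out the libraries with over 25000 genes, chosen after seeing the data, changed no call, though NFKB2 moved to 0.64 for drug at 2 h, against -0.059. Causes were not tested. With 3 replicates, intervals were widest for NFKB2 (SE 0.60 for drug at 24 h) and REL (0.46), where differences of the size called for TNFAIP3 need not be detectable.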
